A study of Mus musculus with 24 samples.

Results

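The genes described here are 10 markers of macrophages and of antigen presentation by MHC class II: Adgre1, Csf1r, Cd68, Mrc1, C1qa, C1qb, Tyrobp, Cd74, H2-Aa and H2-Ab1. They were found by their symbols among the 21833 protein-coding genes of the deposited table, in which all 10 were present. RNA-seq libraries of 24 frozen mouse tissues were compared in 4 groups. AG were adrenal glands from mice without Cre (n = 3), and AGM were tumor-free adrenal glands of mice labelled MYCN +/-, CRE + (n = 5). TI were neuroblastoma tumors of mice carrying an IGF2BP1 transgene and Cre (n = 8; 7 labelled +/+ and 1 +/-). TIM were neuroblastoma tumors of mice carrying both transgenes, labelled IMP1/MYCN, CRE + (n = 8). By the labels, 1 TI and 2 TIM tumors came from the adrenal gland and 1 TIM tumor from the spine. The other tumors were labelled as tumor without a site. Most tumors thus carried no adrenal label, so site and group were largely confounded in comparisons of tumors with glands. Both transgenes sat in Rosa26 behind a stop cassette and were released by an iCre under the Dbh promoter, which is active in the sympatho-adrenal lineage, and the strains had been backcrossed to C57Bl6/N. The libraries were made from bulk tissue, in which fewer cells of a type and less RNA per cell cannot be told apart.

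Tissue macrophages live on CSF1 or IL-34, which signal through the CSF1 receptor, and they are the main source of the C1q chains that start the classical complement cascade. MHC class II molecules present peptides to CD4 T cells. They consist of an alpha and a beta chain, which are guided through the cell by the invariant chain Cd74. Macrophages, dendritic cells and B cells make them to different extents, and their genes are switched on together by the coactivator CIITA, which is recruited to a promoter module of an X box (bound by RFX factors) and a Y box (bound by NF-Y).

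The sequences shown are the windows from 160 to 11 bases before the start of the canonical transcript of 4 of these genes. H2-Ab1 and H2-Aa were called lower in both tumor groups against AG, whereas C1qa and C1qb were not. The windows were read from GRCm39 on the strand of the gene, and none overlaps an annotated exon. The window of H2-Ab1 lies inside the annotated span of the gene, since the annotation also holds a transcript that starts further upstream. Capitals mark matches, on either strand, to the Y box letters CTGATTGG or the X box letters ACNGATG. These letters overlapped in no window.
H2-Ab1 (chr17:34482023-34482172, plus strand): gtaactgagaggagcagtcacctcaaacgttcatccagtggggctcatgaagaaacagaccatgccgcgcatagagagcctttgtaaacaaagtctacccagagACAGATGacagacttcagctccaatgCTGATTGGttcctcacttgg
H2-Aa (chr17:34506808-34506957, minus strand): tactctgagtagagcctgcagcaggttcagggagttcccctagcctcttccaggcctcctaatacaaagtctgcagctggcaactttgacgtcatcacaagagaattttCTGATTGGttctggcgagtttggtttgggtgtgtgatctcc
C1qa (chr4:136626172-136626321, minus strand): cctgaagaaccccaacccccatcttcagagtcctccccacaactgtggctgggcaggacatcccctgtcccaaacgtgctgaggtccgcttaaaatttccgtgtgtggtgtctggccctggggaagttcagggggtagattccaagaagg
C1qb (chr4:136613522-136613671, minus strand): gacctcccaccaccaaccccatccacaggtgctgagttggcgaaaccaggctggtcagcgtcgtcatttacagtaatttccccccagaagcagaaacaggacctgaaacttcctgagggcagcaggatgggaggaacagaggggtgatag

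The Y box letters lay 30 bases before the canonical start of H2-Ab1 and 51 bases before that of H2-Aa, counted from the first base of the match. Both C1q windows held neither motif. Of 21485 protein-coding genes with a window of this length, 3.76% held the Y box letters and 4.19% the X box letters. The X box letters were matched in H2-Ab1 and not in H2-Aa. A match is a description of the sequence and no evidence of binding. A window with no match to these letters may still hold a box of other letters.

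Levels are given in FPKM (fragments per kilobase of gene, relative to a TMM-scaled library size), which can be compared between genes. Groups were compared by limma on log2(FPKM + 1) of the 10171 genes that reached 1 FPKM in at least 3 libraries, and a gene was called where its Benjamini-Hochberg adjusted p (FDR) was below 0.05. Of the 10 genes, 9 passed this filter and Mrc1 did not. All 24 libraries held 12334076 to 23683176 recovered reads outside 126 genes that exceeded 1000 FPKM somewhere, none of them one of the 10. Those genes inflated the read totals of AGM and TIM. Scaling without TMM moved the median of all tested genes by -1.31 in AGM vs AG, 1.25 in TI vs AGM, -1.16 in TIM vs AG and -1.12 in TIM vs TI (log2), so differences between these groups are relative to the authors' scaling. All AG samples came from sequencing run 1 and all AGM samples from run 2, and no TIM sample came from run 1. Of the TI samples 6 came from run 1, 1 from run 2 and 1 from run 3. Of the TIM samples 3 came from run 2 and 5 from run 3. In TIM vs AG, and likewise in AGM vs AG, run and group cannot be told apart. In TI vs AGM and TIM vs TI few samples share a run, so run and group were largely confounded there too.

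**Figure D1:**
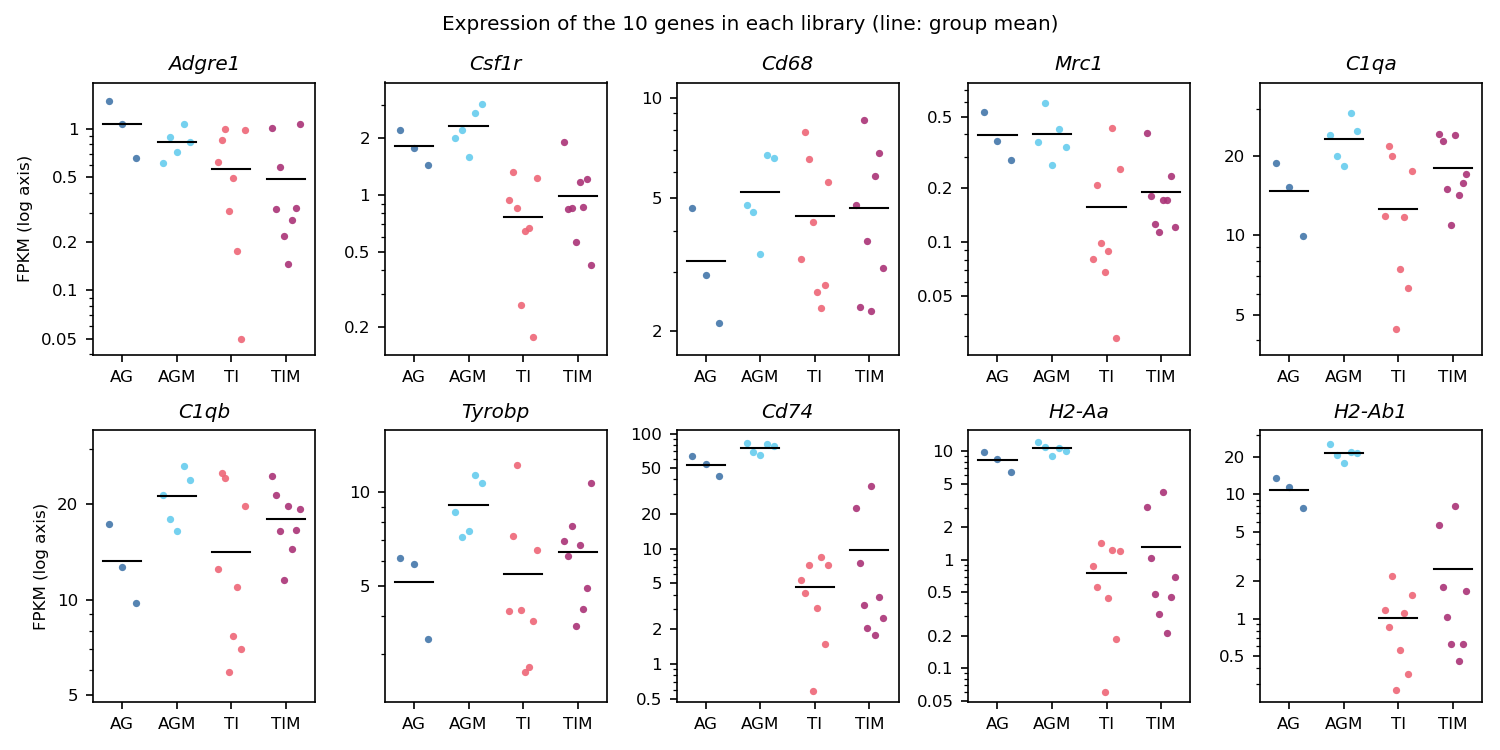
FPKM of the 10 genes in each library (points; log axes that differ between panels) with the mean of each group (line), for AG (n = 3), AGM (n = 5), TI (n = 8) and TIM (n = 8). Cd74 was 42.4 to 82.6 FPKM in the 8 glands and 0.580 to 34.8 FPKM in the 16 tumors, whereas the ranges of C1qa, C1qb, Cd68 and Tyrobp in glands and tumors overlapped.

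The class II genes were the ones that differed most between glands and tumors. Cd74, H2-Aa and H2-Ab1 were lower in the tumors of both models than in either gland group, by 4.35 to 21.3 times in mean FPKM, while C1qa, C1qb, Cd68 and Tyrobp were not called between the tumors and AG. Without TMM scaling the class II genes stayed called against AG, but none of the 3 was called against AGM and the sign of Cd74 and H2-Aa turned in TI vs AGM. Over all genes, 27.7% of those tested were called lower in TI vs AG, 28.5% in TIM vs AG, 36.2% in TI vs AGM and 33.4% in TIM vs AGM. Of the 9 genes tested, 4 were called lower in TI vs AG, 5 in TIM vs AG, 7 in TI vs AGM and 4 in TIM vs AGM. None was called higher, against backgrounds of 24.6%, 22.5%, 36.2% and 31.9% in the same order.

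Cd74, the invariant chain (chr18:60936899-60945731), was the most abundant of the 10 in the glands. Its level was 64.3, 54.0 and 42.4 FPKM in the AG libraries and 82.6, 68.9, 65.6, 80.7 and 78.7 FPKM in the AGM libraries. The TI libraries ranged from 0.580 through a median of 4.74 to 8.46 FPKM, and the TIM libraries from 1.79 through 3.53 to 34.8 FPKM. Every tumor was below every gland. Group means were 53.6 ± 10.9 (SD, n = 3) in AG, 75.3 ± 7.57 (n = 5) in AGM, 4.70 ± 2.88 (n = 8) in TI and 9.79 ± 12.3 FPKM (n = 8) in TIM. On the log2(FPKM + 1) scale Cd74 fell by 3.46 ± 0.64 (SE; limma, FDR = 8.97e-05) in TI vs AG and by 2.99 ± 0.64 (limma, FDR = 0.000431) in TIM vs AG. Against AGM it was lower by 16.03 times in TI and 7.69 times in TIM, as ratios of mean FPKM.

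H2-Aa encodes the alpha chain of the class II molecule I-A (chr17:34493404-34506798). AG libraries held 9.95, 8.55 and 6.38 FPKM and AGM libraries 12.1, 10.9, 9.15, 10.8 and 10.2 FPKM. In TI the lowest, median and highest values were 0.0605, 0.716 and 1.42 FPKM, and in TIM they were 0.213, 0.588 and 4.19 FPKM. Again no tumor reached the level of any gland. The difference in log2(FPKM + 1) was -2.45 ± 0.35 (limma, FDR = 3.52e-06) in TI vs AG and -2.20 ± 0.35 (limma, FDR = 1.46e-05) in TIM vs AG. An annotated transcript of the neighbouring H2-Eb1 on the opposite strand spans H2-Aa, and the strand setting of the counting is not given in the sources used here, so reads of the pair may have been shared.

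H2-Ab1, the beta chain that pairs with H2-Aa (chr17:34476663-34488393), was at 13.4, 11.3 and 7.79 FPKM in AG. AGM libraries were higher, at 25.2, 20.7, 17.9, 21.9 and 21.5 FPKM, and did not overlap AG. TI ranged from 0.265 through 0.988 to 2.18 FPKM and TIM from 0.454 through 1.35 to 8.06 FPKM, so 1 TIM library overlapped the AG range. The log2 difference was -2.59 ± 0.42 (limma, FDR = 1.92e-05) in TI vs AG and -2.06 ± 0.42 (limma, FDR = 0.000278) in TIM vs AG. AGM vs AG was not called for this gene (0.94 ± 0.45, limma FDR = 0.125).

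Cd74 and H2-Aa were thus lower in all 16 tumors than in all 8 glands, which held for 12% of all tested genes. In TIM, 2 libraries stood apart from the other 6: libraries 1 and 5, numbered as in the table, held 22.6 and 34.8 FPKM of Cd74, while the other 6 held at most 7.51 FPKM. The same 2 libraries had the highest sums of 6 adipocyte markers among the tumors, at 15.8 and 52.2 FPKM, against 0.0437 to 6.98 FPKM in the other TIM and 0.167 to 2.27 FPKM in TI libraries. The sums of 8 adrenal cortex markers in TIM libraries 1 and 5, 2.64 and 9.28 FPKM, were also the highest of TIM. TI libraries 6 and 7 held 10.1 and 2.71 FPKM of the cortex markers, with 8.46 and 1.48 FPKM of Cd74. Glands held 91.8 to 1219 FPKM of the adipocyte and 645 to 5373 FPKM of the cortex markers. The part of either tissue in the class II levels was not tested. TIM libraries 1 and 5 were left out in an alternative chosen after seeing the data. There 5 genes were called in TIM vs AG and 4 in TIM vs AGM, as with them. Cd74 fell by 3.69 (limma, FDR = 4.83e-07) in TIM vs AG without them.

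**Figure D2:**
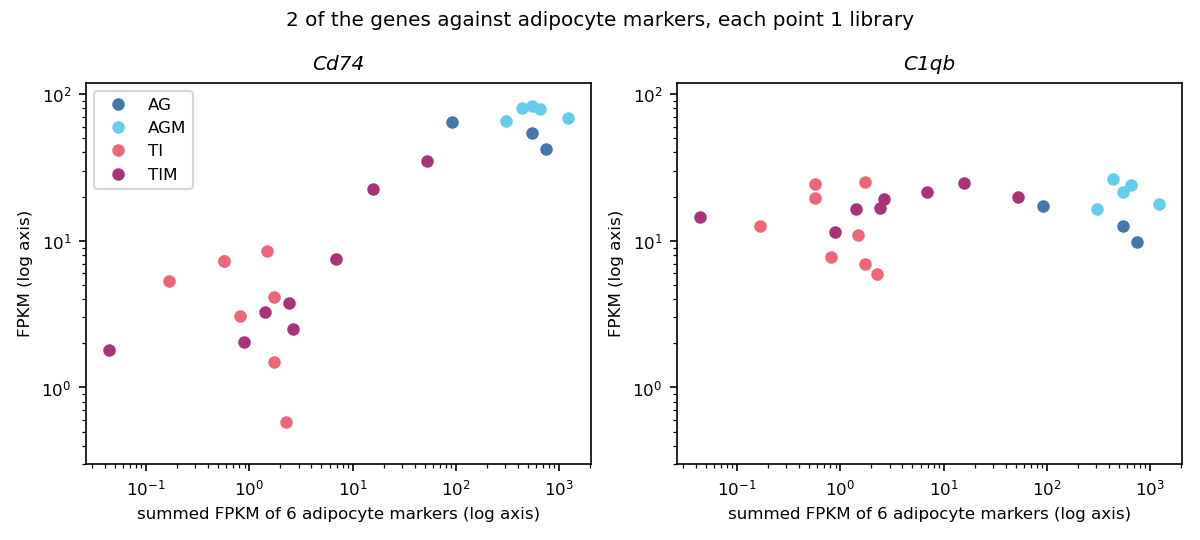
FPKM of Cd74 (left) and C1qb (right) against the summed FPKM of 6 adipocyte markers in each of the 24 libraries (log axes), coloured by group. TIM libraries 1 and 5, at 15.8 and 52.2 FPKM of adipocyte markers, lie between the other tumors and the glands in Cd74, while in C1qb the glands (9.79 to 26.4 FPKM) and tumors (5.94 to 25.1 FPKM) cover like ranges.

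Genes of the C1q complex and the phagocyte signalling chain kept levels in tumors that overlapped those of glands. C1qa (chr4:136623223-136626161), the A chain of C1q, was at 18.8, 15.3 and 9.89 FPKM in AG and at 23.9, 19.9, 18.2, 29.2 and 24.8 FPKM in AGM. TI libraries spread widely, from 4.39 through 11.7 to 21.8 FPKM, and TIM libraries lay between 10.9 and 24.2 FPKM with a median of 16.4. The differences from AG were -0.32 ± 0.35 (limma, FDR = 0.468) in TI and 0.27 ± 0.35 (limma, FDR = 0.540) in TIM. C1qb (chr4:136606009-136613511), the B chain, followed C1qa closely, with means of 13.3 ± 3.81 (n = 3) in AG, 21.2 ± 4.10 (n = 5) in AGM, 14.2 ± 7.80 (n = 8) in TI and 18.0 ± 4.12 FPKM (n = 8) in TIM. Its log2 difference from AG was -0.05 ± 0.34 (limma, FDR = 0.956) in TI and 0.42 ± 0.34 (limma, FDR = 0.313) in TIM. The third chain, C1qc, which was not among the 10, was not called in either comparison (limma FDR = 0.78 and 0.37).

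Tyrobp (chr7:30113170-30117010) encodes DAP12, an adaptor of activating receptors in myeloid and NK cells. Its mean was 5.13 ± 1.52 (n = 3) in AG, 9.10 ± 1.89 (n = 5) in AGM, 5.44 ± 3.20 (n = 8) in TI and 6.42 ± 2.25 FPKM (n = 8) in TIM. Its 5 AGM libraries (7.20 to 11.4 FPKM) were all above the 3 AG libraries (3.38 to 6.13 FPKM), but the difference was not called (0.73 ± 0.34, limma FDR = 0.110). Cd68 (chr11:69555037-69557067), a lysosomal glycoprotein of macrophages, had a mean of 3.24 ± 1.31 (n = 3) in AG, 5.22 ± 1.43 (n = 5) in AGM, 4.41 ± 2.07 (n = 8) in TI and 4.68 ± 2.26 FPKM (n = 8) in TIM. It was called in none of the comparisons, and the ranges of all 4 groups overlapped.

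Against AGM the calls of these genes changed with the scaling. In TI vs AGM, C1qa (-0.98 ± 0.29, limma FDR = 0.00504), Tyrobp (-0.76 ± 0.27, limma FDR = 0.0136) and C1qb (-0.70 ± 0.28, limma FDR = 0.0306) were called lower. In TIM vs AGM none of these was called (C1qa -0.38 ± 0.29, limma FDR = 0.261). When FPKM were rescaled to the reads outside genes above 1000 FPKM, the calls of C1qa, C1qb and Tyrobp in TI vs AGM were lost and 4 of 9 genes were called, and without TMM scaling their sign turned.

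Receptor and surface markers of macrophages lay between these patterns. Csf1r (chr18:61229714-61266535), the receptor of CSF1 and IL-34, was at 2.19, 1.77 and 1.44 FPKM in AG and at 1.99, 2.21, 1.59, 2.71 and 3.02 FPKM in AGM. TI ranged from 0.178 through 0.761 to 1.32 FPKM, below every gland, and TIM from 0.428 through 0.860 to 1.90 FPKM, with 1 library inside the gland range. The difference was called in TI vs AG (-0.70 ± 0.20, limma FDR = 0.00601), TIM vs AG (-0.52 ± 0.20, limma FDR = 0.0346), TI vs AGM (-0.93 ± 0.17, limma FDR = 4.92e-05) and TIM vs AGM (-0.75 ± 0.17, limma FDR = 0.000593). Its call in TIM vs AG was lost with a pseudocount of 0.1 or when AG library 1 or 2 or TIM library 4 or 8 was left out. Without TMM scaling the sign of Csf1r turned against AGM.

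Adgre1 (chr17:57665573-57790527) encodes F4/80, the classical surface marker of mouse macrophages. AG libraries held 1.49, 1.07 and 0.663 FPKM, AGM libraries 0.613 to 1.07 FPKM, TI libraries 0.0496 to 1.002 FPKM and TIM libraries 0.146 to 1.07 FPKM, so every pair of groups overlapped. It was called only in TIM vs AG (-0.49 ± 0.20, limma FDR = 0.0454), and this call was lost in 10 of the alternatives tried, among them the removal of AG library 1 or 2. In TI vs AG it missed the threshold (-0.43 ± 0.20, limma FDR = 0.0798).

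Mrc1 (chr2:14234151-14336926), the mannose receptor CD206 of tissue-resident macrophages, stayed below 1 FPKM in all libraries. It was at 0.530, 0.367 and 0.287 FPKM in AG and at 0.268 to 0.597 FPKM in AGM. TI ranged from 0.0294 through 0.0942 to 0.430 FPKM (14 to 289 reads) and TIM from 0.114 through 0.172 to 0.404 FPKM (69 to 273 reads). In each tumor group 7 of 8 libraries were below all AG libraries. Exact two-sided permutation tests, adjusted over 6 comparisons, gave p = 0.0364 in TI vs AG and in TIM vs AG, and p = 0.0326 in TI vs AGM and in TIM vs AGM. With 3 against 8 libraries the smallest possible p is 0.00606.

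**Figure D3:**
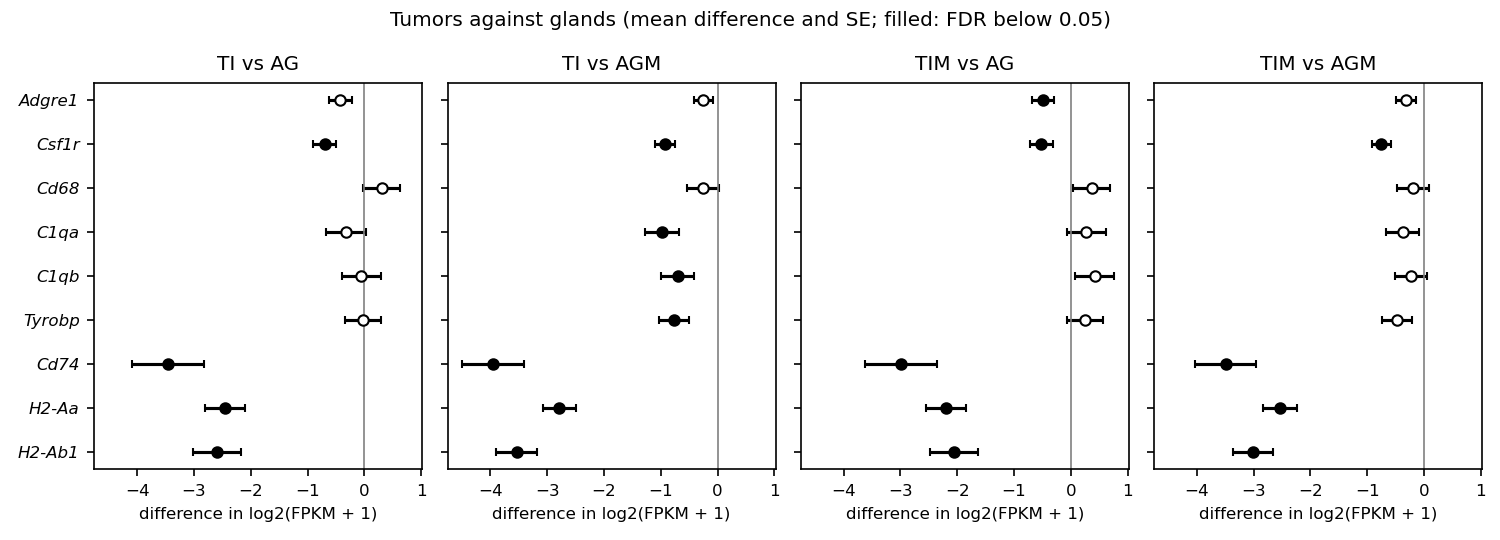
Difference in mean log2(FPKM + 1) with its SE for the 9 tested genes in 4 comparisons of tumors with glands; filled points had a limma FDR below 0.05. Cd74, H2-Aa and H2-Ab1 lie between -3.95 and -2.06 in all panels, and Csf1r between -0.93 and -0.52, while the other genes lie between -0.98 and 0.42.

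No difference between the 2 gland groups was called for these genes. In AGM vs AG none of the 9 genes was called, where 28.6% of all tested genes were called in either direction. All but Adgre1 had a higher mean in AGM. When the spread was estimated from the AG and AGM libraries alone, 5 genes (C1qa, C1qb, Tyrobp, Cd74 and H2-Ab1) were called higher. That fit called 2969 of all 10171 tested genes higher and 3343 lower. Rescaling to reads outside genes above 1000 FPKM turned the sign of Csf1r and H2-Aa. Without TMM scaling all 9 were called lower, as were 8532 of all 10171 tested genes. Nor was there a call between the tumor models: in TIM vs TI none of the 9 was called (22.9% of all genes in either direction), with C1qa closest (0.60 ± 0.26, limma FDR = 0.0962). That gene was called when TI library 2 was left out (0.73, limma FDR = 0.0477). In a test of whether the difference TIM vs AGM departed from TI vs AG, none of the 9 was called, where 10% of all genes were.

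Ratios of 2 genes within a library do not depend on how libraries are scaled. They can still depend on the authors' batch correction, which changes the counts gene by gene. Cd74 per C1qb was 3.71, 4.27 and 4.33 in AG and 3.06 to 3.98 in AGM. In TI it was 0.0977 to 0.769 with a median of 0.334, and in TIM 0.124 to 1.76 with a median of 0.213. The highest tumor values were 0.920 and 1.76 in TIM libraries 1 and 5, so every tumor was below every gland. H2-Ab1 per C1qb was 0.772 to 0.895 in AG and 0.828 to 1.18 in AGM, against 0.0343 to 0.101 in TI and 0.0314 to 0.408 in TIM.

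Csf1r per C1qb was also lower in each tumor (0.0221 to 0.0834) than in each gland (0.0931 to 0.147). How many of all genes separate tumors from glands by their ratio to C1qb was not counted. By FPKM itself, every tumor was below every gland for 12% of tested genes. C1qa per C1qb, in contrast, had medians of 1.08 in AG, 1.11 in AGM, 0.892 in TI and 0.963 in TIM. Cd68 per C1qb spread from 0.110 to 0.715 in tumors, on both sides of the gland range of 0.207 to 0.277. These ratios show that the batch-corrected values of these genes did not change in 1 proportion. The ratios do not show that any gene stayed the same.

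**Figure D4:**
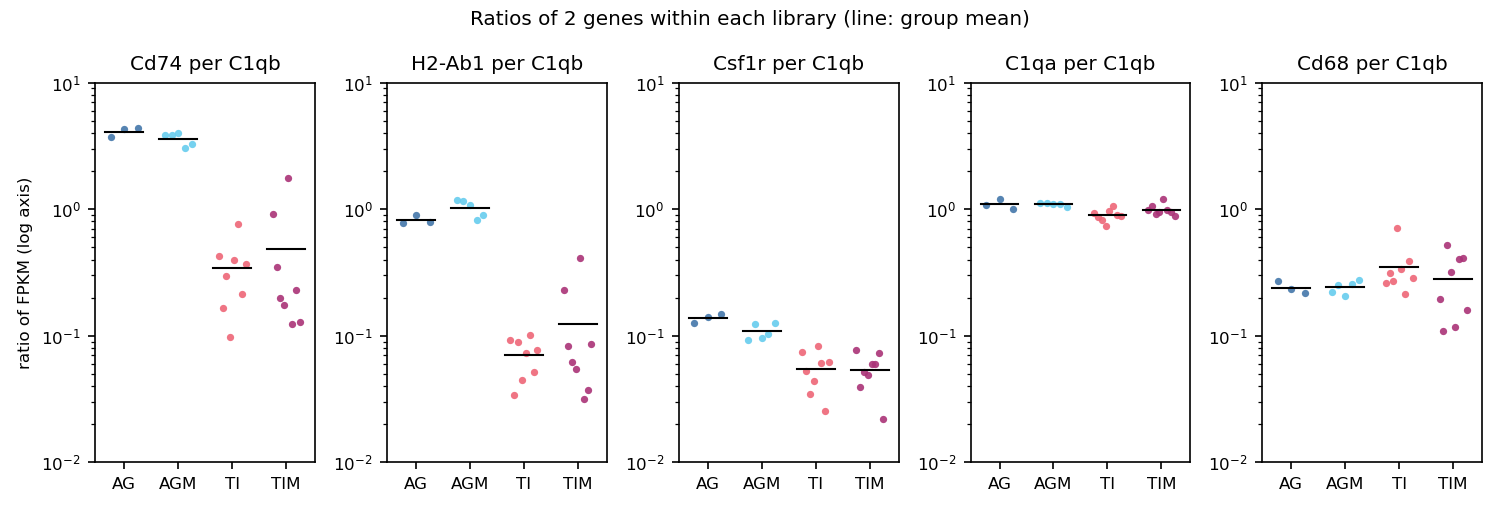
Ratio of the FPKM of 2 genes within each library (points; log axis) with the group mean (line). Cd74, H2-Ab1 and Csf1r per C1qb were lower in all 16 tumors than in all 8 glands, with medians of Cd74 per C1qb of 4.27 in AG and 0.334 in TI, whereas C1qa per C1qb stayed between 0.740 and 1.21 in all libraries. The share of all genes with such a separation was not counted.

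The rest of the class II pathway was uneven. Of 14 listed genes 9 were tested, of which 3 were called lower and 1 higher in TI vs AG, 3 lower and 0 higher in TIM vs AG, 7 lower and 1 higher in TI vs AGM, and 6 lower and 1 higher in TIM vs AGM. The median log2 difference was -0.30 in TI vs AG, beside -0.00 over all tested genes, of which 27.7% were called lower and 24.6% higher there. H2-Eb1, the beta chain of I-E, moved like the members: it was 12.4 to 19.6 FPKM in AG and 17.9 to 24.6 FPKM in AGM, against 0.109 to 2.69 FPKM in TI and 0.285 to 9.51 FPKM in TIM, and fell by 2.94 ± 0.49 (limma, FDR = 2.6e-05) in TI vs AG. H2-DMb1, a chain of the peptide-loading chaperone, fell by 0.87 ± 0.16 (limma, FDR = 8.3e-05) in TI vs AG, and Ifi30, a thiol reductase of the endosome, by 0.53 ± 0.15 (limma, FDR = 0.005).

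The other chaperone chain H2-DMa (-0.19, limma FDR = 0.22), the proteases Ctss (-0.85, limma FDR = 0.053) and Lgmn (-0.07, limma FDR = 0.86) and the RFX subunits Rfx5 (-0.30, limma FDR = 0.058) and Rfxank (-0.10, limma FDR = 0.45) were not called in TI vs AG. Rfxap was called higher there (0.40 ± 0.12, limma FDR = 0.0081). Of the genes below the filter, Ciita itself was at 0.142 to 0.304 FPKM in AG (144 to 311 reads) and 0.133 to 0.182 FPKM in AGM. It was at 0 to 0.0354 FPKM in TI (0 to 41 reads) and 0.00112 to 0.0376 FPKM in TIM (1 to 38 reads). In a fit with no filter it fell by 0.27 in TI vs AG (limma, FDR = 5e-09). H2-DMb2, H2-Oa and H2-Ob, chains found mostly in B cells and dendritic cells, held at most 40 reads in any tumor. Over these 3 genes, AG libraries held 14 to 207 reads and AGM libraries 12 to 56 reads, so the ranges overlapped. Marchf1, a ubiquitin ligase of class II, was at most 0.166 FPKM in any library.

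**Figure D5:**
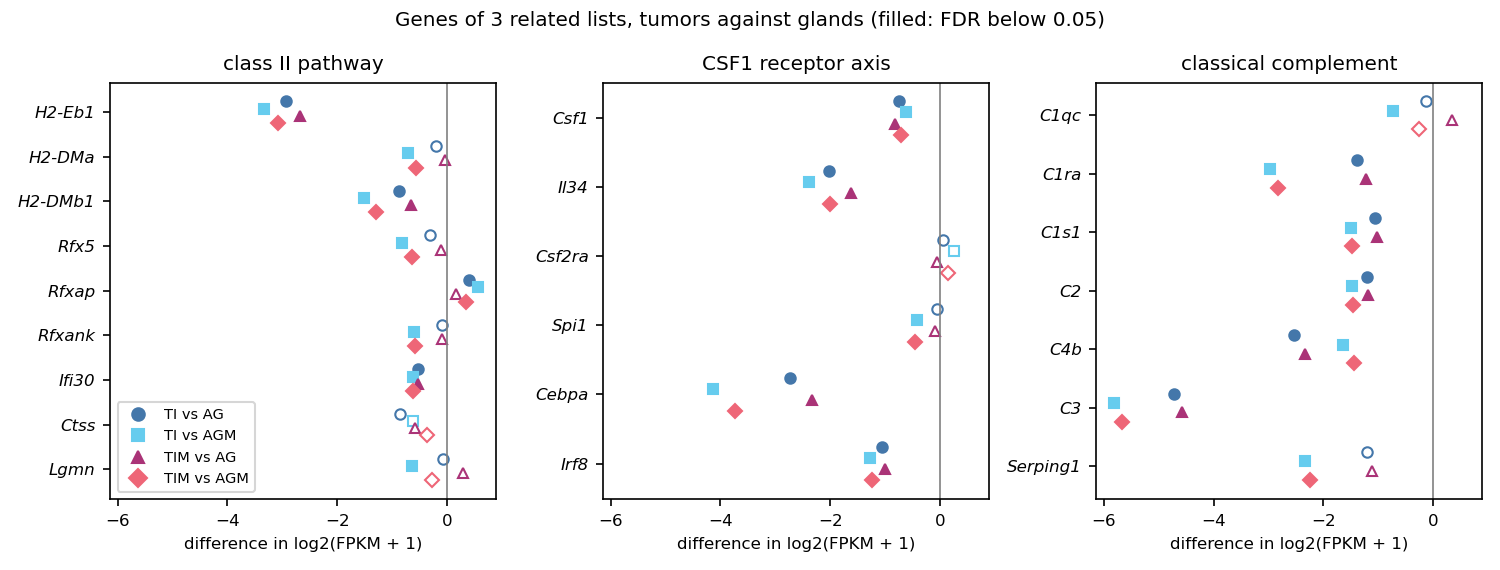
Difference in mean log2(FPKM + 1) between tumors and glands for the tested genes of 3 lists: class II pathway (9 genes), CSF1 receptor axis (6) and classical complement (7); symbols mark the comparison and filled symbols a limma FDR below 0.05. H2-Eb1 (-2.94 in TI vs AG) stands far left in its list, while C1qc lies between -0.73 and 0.34 and C3, C4b and C2 lie left of -1 throughout.

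Among the ligands and transcription factors of the CSF1 receptor axis, 4 of 6 tested genes were called lower in TI vs AG and in TIM vs AG, and 5 in each comparison with AGM. None was called higher, and the median log2 difference in TI vs AG was -0.90. Il34 was at 4.28 to 5.44 FPKM in AG and 5.44 to 7.74 FPKM in AGM, against 0.117 to 1.68 FPKM in TI and 0.199 to 4.56 FPKM in TIM, and fell by 2.03 ± 0.33 (limma, FDR = 2.1e-05) in TI vs AG. Csf1 fell by 0.74 ± 0.14 (limma, FDR = 0.00014). Irf8, a factor of monocyte and dendritic cell development, was at 1.29 to 2.32 FPKM in glands and at 0.109 to 0.354 FPKM in tumors, and fell by 1.05 ± 0.09 (limma, FDR = 3.1e-09). Cebpa, which is also active in adipocytes, fell by 2.73 ± 0.41 (limma, FDR = 6.4e-06).

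Spi1, which encodes PU.1, was not called against AG (-0.06 ± 0.16 in TI, limma FDR = 0.83), nor was Csf2ra (0.06 ± 0.18, limma FDR = 0.83). Csf2 was at 0 in all AG, TI and TIM libraries, and Csf2rb did not exceed 0.298 FPKM.

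In the classical complement list, 5 of 7 tested genes were called lower in TI vs AG and in TIM vs AG, 7 in TI vs AGM and 6 in TIM vs AGM, with none called higher. The median in TI vs AG was -1.21. C3, the central component, was at 27.0 to 55.2 FPKM in AG and 26.3 to 223 FPKM in AGM, against 0.224 to 1.36 FPKM in TI and 0.155 to 4.14 FPKM in TIM, and fell by 4.73 ± 0.54 (limma, FDR = 1.3e-07) in TI vs AG. C4b fell by 2.54 ± 0.47 (limma, FDR = 8.3e-05), C1ra by 1.38 ± 0.36 (limma, FDR = 0.0025), C2 by 1.20 ± 0.09 (limma, FDR = 5.4e-11) and C1s1 by 1.05 ± 0.33 (limma, FDR = 0.011). The C1 inhibitor Serping1 was not called (-1.21 ± 0.58, limma FDR = 0.086). C3ar1 and C5ar1, receptors of the complement peptides, were below the filter, at 0.0260 to 0.647 FPKM in tumors. C3, C4b and C2 are also made by stromal cells and adipocytes.

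Some other macrophage genes were called lower in tumors and others were not. Of 16 tested in a list of 30, 4 were called lower and 0 higher in TI vs AG, 5 lower and 2 higher in TIM vs AG, 11 lower in TI vs AGM and 8 lower in TIM vs AGM. Over all tested genes, 27.7%, 28.5%, 36.2% and 33.4% were called lower in the same order. The lower calls against AG were thus near the share of all genes. Unlike the 10 genes, this list also held calls between the tumor models and between the gland groups. In TIM vs TI 6 were called higher and in AGM vs AG 7, and none lower in either. Of all 10171 tested genes, 1017 were called higher in TIM vs TI and 1488 in AGM vs AG. Timd4 and Cd209f of this list held 1 read in each AG library, whereas Timd4 was at 0.447 to 5.22 FPKM in AGM. Timd4 was at most 0.00460 FPKM in TI, and at 0 to 1.96 FPKM in TIM. These groups also differ in run, and the part of run in these calls was not tested. The cathepsins Ctsb (-1.53 ± 0.28, limma FDR = 8.2e-05) and Ctsd (-1.15 ± 0.23, limma FDR = 0.00019) were called lower in TI vs AG. Lyz2 (-0.92 ± 0.51, limma FDR = 0.13), Apoe (-0.36 ± 0.61, limma FDR = 0.68) and Fcer1g (0.00 ± 0.30, limma FDR = 1) were not. Of 8 tested genes in a pan leukocyte list, 1 was called lower in TI vs AG and 2 in TIM vs AG, and the summed level of its 10 genes was 10.3 to 18.1 FPKM in AG and 14.5 to 21.3 FPKM in AGM, against 4.07 to 21.9 FPKM in TI and 7.20 to 13.3 FPKM in TIM.

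Markers of B cells, which also carry class II, were lower in tumors, whereas those of dendritic cells did not share 1 direction. The 7 B cell markers summed to 3.05 to 6.06 FPKM in AG and 1.65 to 3.82 FPKM in AGM, against 0.198 to 1.28 FPKM in TI and 0.112 to 0.652 FPKM in TIM. Both tested markers were called lower in each comparison of tumors with glands. These markers reached 1 FPKM only in glands, through which they passed the filter. Of 3 tested dendritic cell genes, Cd209a was called lower in TI vs AG (-1.25, limma FDR = 1.6e-14), and 2 were called higher there and in TI vs AGM, among them Fscn1 (1.21, limma FDR = 0.032), an actin-bundling protein that neural cells also make. In TIM 1 of the 3 was called lower against each gland group and 1 higher against AGM. The 10 dendritic cell genes summed to 14.8 to 21.3 FPKM in AG and 3.48 to 5.995 FPKM in AGM, against 7.03 to 72.1 FPKM in TI and 15.1 to 41.6 FPKM in TIM. Fscn1 made up most of each sum, at 12.3 to 17.7 FPKM in AG and 2.63 to 4.77 FPKM in AGM. In TI it was at 5.82 to 69.4 FPKM and in TIM at 13.7 to 40.4 FPKM. Below the filter, Flt3, Xcr1, Clec9a, Siglech, Ccr7 and Zbtb46 had a lower mean in TI than in AG, and Itgax a higher one. The part of B cells and dendritic cells in the class II difference was not tested.

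The 8 monocyte markers summed to 14.5 to 16.5 FPKM in AG and 9.50 to 11.8 FPKM in AGM, against 1.12 to 5.82 FPKM in TI and 0.492 to 4.37 FPKM in TIM. Of 3 tested, 1 was called lower in TI vs AG and all 3 in TI vs AGM. Ly6a made up most of this sum in the glands, at 12.4 to 14.4 FPKM in AG and 7.16 to 8.93 FPKM in AGM. It was at 0.720 to 4.55 FPKM in TI and 0.0737 to 3.65 FPKM in TIM. The other tested genes, Plac8 and Chil3, had higher means in AGM (1.31 and 1.21 FPKM) than in AG (0.651 and 0.261 FPKM). Both reached 1 FPKM only in AGM, so they passed the filter through that group. The 6 mast cell markers summed to 11.2 to 20.05 FPKM in AG and 1.32 to 4.16 FPKM in AGM, and to at most 0.0805 FPKM in TI and at most 0.149 FPKM in TIM, where Ms4a2 was at 0. All 3 tested reached 1 FPKM only in glands, through which they passed the filter, and were called lower in both tumor groups. The 2 of 9 neutrophil markers that were tested were called in none of the comparisons. The 1 tested T cell marker, Thy1, which neurons also express, was not called in TI vs AG (0.02 ± 0.49, limma FDR = 0.9999). It was called higher in TIM vs AG (2.13 ± 0.49, limma FDR = 0.000993), TIM vs TI (2.11 ± 0.37, limma FDR = 0.000426) and AGM vs AG (1.79 ± 0.53, limma FDR = 0.0150), and lower in TI vs AGM (-1.77 ± 0.42, limma FDR = 0.000651). The 1 tested NK cell gene, Ncr1, was called higher in AGM vs AG and lower in both tumor groups against AGM. It reached 1 FPKM only in AGM (2.98 to 8.12 FPKM). Ncr1 thus passed the filter through that group alone, and these calls are no independent result. Among the untested NK cell genes, some had a higher mean in AGM than in AG and others a lower one.

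The tissues around these cells differed too. All 6 adipocyte markers were called lower in each comparison of tumors with glands, as were 7 of 8 adrenal cortex markers against AG and 8 of 8 against AGM. Of 7 endothelial markers, 4 were called lower in TI vs AG and 7 in each of the other 3 comparisons. Of 6 fibroblast markers 3 were called lower and 1 higher in both comparisons with AG, and 3 lower and 2 higher with AGM. Of 9 chromaffin and neuroblast markers, 5 were called higher in TI vs AG, in TIM vs AG and also in AGM vs AG, where both groups are glands. Against AGM, 4 were called higher and 3 lower in TI, and 2 higher and 3 lower in TIM. All 5 tested red cell markers were called higher in AGM vs AG and lower in both tumor groups against AGM, and none in the tumors against AG. The part of each of these tissues in the values of the 10 genes was not tested.

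Over the 16 tumors, with each group centred on its own mean, the pairwise Pearson r of log2(FPKM + 1) was 0.93 to 0.98 among the 3 class II genes. It was 0.25 to 0.97 among the 6 macrophage genes (median 0.58) and -0.24 to 0.73 between the 2 sets (median 0.51). These are descriptions over libraries that share scaling and dissection. The genes most like the mean profile of the 9 tested genes over all 24 libraries were Irf5 (r = 0.93), Arhgdib (0.91), Vsir (0.91), Pltp (0.89), Cyba (0.88), Slamf9 (0.87), H2-DMb1 (0.87), Cxcl16 (0.87), Unc93b1 (0.86) and Tmem86a (0.85). Within the 16 tumors they were Ctss (r = 0.92), Oas1a (0.91), C1qc (0.91), Irf5 (0.88), Akr1c13 (0.87), Tmem86a (0.86), H2-DMb1 (0.85), Cthrc1 (0.85), Gimap3 (0.84) and Unc93b1 (0.84).

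When the class II and macrophage genes were taken apart, a split chosen after their values were seen, the lists differed. Within the tumors the 10 closest to the class II genes were H2-Eb1 (r = 0.99), Isg15 (0.93), Lfng (0.92), Ifi27l2a (0.92), Ifit3b (0.90), Oas1a (0.90), Gstt3 (0.90), H2-DMb1 (0.90), Crybb1 (0.89) and Serinc2 (0.89). Of these, Isg15, Ifi27l2a, Ifit3b and Oas1a are interferon-stimulated genes. The 10 closest to the macrophage genes were C1qc (r = 0.97), Ctss (0.91), Mpeg1 (0.90), Cd300c2 (0.89), Tmem86a (0.87), Akr1c13 (0.87), Slc37a2 (0.86), Ttll10 (0.86), Laptm5 (0.86) and Btbd10 (0.85). Of these, C1qc, Ctss, Mpeg1 and Cd300c2 are expressed in myeloid cells. Neither list was tested for a shared function or cell type.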

How the data were processed

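RNA-seq of 24 mouse samples was analysed (poly(A), strand-specific libraries). Per the submitters' notes and the study's methods, the authors trimmed reads with cutadapt 2.8, aligned them with HISAT2 2.1.0 to mm39, sorted them with SAMtools 1.10, counted them with featureCounts 2.0.0, removed a batch effect from the counts by ComBat-seq and normalized them by TMM in edgeR 3.40. The annotation and the strand setting of the counting are not given in the sources used here. The deposited values were FPKM by the authors, with gene lengths; columns with the authors' own fold changes and p-values were not used. This correction can shift a gene far where a run held few of its reads.

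Members were matched by symbol and checked by Ensembl identifier in GENCODE M39 (GRCm39, the build of mm39). Columns named groups only, so libraries were numbered as in the table, and run, zygosity and tumor location of a library were not used. That samples are separate mice is not stated for each, so p-values measure the spread between samples. FPKM times gene length gave whole reads (tolerance 0.01) for 100% of values; intervals and read numbers cover counting error only. Groups were compared by limma 3.58.1 (R 4.3.3; lmFit, eBayes with trend) on log2(FPKM + 1), with 10171 genes at 1 FPKM or more in at least 3 libraries, all 24 libraries, no covariates, 7 contrasts and Benjamini-Hochberg adjustment over all tested genes. The fit was tested on simulated data. Mrc1, below the filter, was compared by exact permutation tests on FPKM. The scale of log2(FPKM + 1) understates changes of low genes. Named genes were the 10 members, all genes of the class II pathway, CSF1 receptor axis and classical complement lists, up to 4 of the most abundant genes of each other list, and the 10 genes most like the members by Pearson r. Fcer1g, Timd4, Cd209f, Cd209a, Flt3, Xcr1, Clec9a, Siglech, Ccr7, Ms4a2 and the separate likeness lists were named after their values were seen. A gene of the CSF1 receptor axis list is not reported here and was left out of its counts. The members and lists were chosen with earlier results of these data known.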

Additional observations from a re-analysis of the deposited data

Results flagged for a closer look

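In TIM, the highest Mrc1 level (0.404 FPKM, in library 1) lay far from the other 7 libraries, of which the next held 0.233 FPKM, by Dixon's test at the 95% level. This was 1 of 30 groups tested over the 10 genes, and chance alone marks about 1 in 20. The same library was 1 of the 2 TIM tumors with high Cd74 and adipocyte markers.

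Rfxank, a subunit of the RFX complex, was the only gene above the filter on low values, among the members and the 3 lists described in full, whose difference TIM vs AGM departed from TI vs AG. The departure was -0.49 (limma, FDR = 0.0176) on the log2 scale. Its mean was 0.897 FPKM in AG, 1.71 in AGM, 0.775 in TI and 0.798 FPKM in TIM, so the gland groups differed and the tumor groups were close. In a fit with no filter, H2-DMb2 (0.46, limma FDR = 0.00313) and H2-Ob (0.14, limma FDR = 0.000233) of the class II pathway list departed as well.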

How the results depend on the processing

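The direction and call of Cd74, H2-Aa and H2-Ab1 held in all alternatives in which they were tested against AG (18 in TI, 19 in TIM), with log2 fold changes of -5.01 to -1.91, in 19 of 20 in TI vs AGM and in 20 of 21 in TIM vs AGM. The exception was the scaling without TMM. It called 8232 of all 10171 tested genes lower in TIM vs AG, 8532 in AGM vs AG and 9147 in TIM vs TI. With it, members called numbered 9 in TIM vs AG, AGM vs AG and TIM vs TI, 0 in TIM vs AGM and 4 in the test of (TIM vs AGM) minus (TI vs AG), and log2 fold changes turned sign. They were, in TIM vs AG Cd68 -1.38, C1qa -2.43, C1qb -2.28 and Tyrobp -1.79. In AGM vs AG Csf1r -1.34, Cd68 -1.73, C1qa -2.92, C1qb -2.86, Tyrobp -2.09, Cd74 -3.75, H2-Aa -2.61 and H2-Ab1 -2.57. In TIM vs TI Csf1r -0.62, Cd68 -1.67, C1qa -2.08, C1qb -2.21, Tyrobp -1.75, Cd74 -1.55, H2-Aa -0.61 and H2-Ab1 -0.68. In TIM vs AGM Adgre1 0.039, Csf1r 0.010, Cd68 0.35, C1qa 0.50, C1qb 0.58 and Tyrobp 0.30. In TI vs AGM Adgre1 0.55, Csf1r 0.63, Cd68 2.02, C1qa 2.58, C1qb 2.795, Tyrobp 2.05, Cd74 0.29 and H2-Aa 0.15. The recovered reads of AGM and TIM include the 126 genes above 1000 FPKM, so this scaling lowers all their other values.

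Rescaling to the reads outside those genes moved the median of all genes by -0.27 in AGM vs AG, 0.27 in TI vs AGM and 0.21 in TIM vs AGM, called 4 members in TI vs AGM, and turned the sign of Csf1r -0.091 and H2-Aa -0.088 in AGM vs AG, Cd68 -0.041 in TIM vs TI, Cd68 0.077 and C1qb 0.073 in TIM vs AGM, Cd68 0.12 in TI vs AGM. A filter of at least 1 FPKM in every library removes genes that are low in tumors: it kept 4 members and called 0 in TI vs AG, 0 in TIM vs AG, 0 in TIM vs AGM and 3 in TI vs AGM. A pseudocount of 0.1 called 3 members in TIM vs AG. A fit of AG and AGM alone called 5 in AGM vs AG, where it called 2969 of all 10171 tested genes higher and 3343 lower. Leaving out 1 library gave 3 to 5 in TIM vs AG and 0 to 1 in TIM vs TI. Over these, the log2 fold change ran from -0.23 to 0.15 for C1qb and -0.25 to 0.10 for Tyrobp in TI vs AG, and from -0.061 to 0.18 for Cd68 in TIM vs TI. Without TIM libraries 1 and 5, chosen after seeing the data, Cd74 (-0.24) and H2-Aa (-0.15) turned sign in TIM vs TI, where neither was called. The cause of these changes was otherwise not tested.

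Quasi-likelihood and DESeq2 fits of the recovered reads were not run, since the deposited unit is FPKM. No paired analysis was possible because the deposited columns carry no replicate number that matches the sample titles. Genes below 1 FPKM rest on few reads per library, as few as 14 for Mrc1 and 0 for Ciita. Small differences between such genes were not detectable at this depth.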
